A study of Homo sapiens with 12 samples.

Results

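The integrated stress response was followed through 10 human genes: ATF4, ATF3, DDIT3, ASNS, TRIB3, CHAC1, DDIT4, PSAT1, PHGDH and SLC7A11. They were chosen by name, and each value is the sum of a gene's transcript rows after pairing with GENCODE symbols. The table held 39099 such genes, and 9 of the 10 passed the low-value filter that left 14767 genes for testing, with CHAC1 below it. RNA came from 2 established human pancreatic cancer cell lines, AsPC-1 and PANC-1, each as a mock control or overexpressing either TAp63 or deltaNp63. These isoforms are the long and the amino-terminally truncated protein classes of TP63, a transcription factor of the p53 family. Each of the 6 groups held 2 libraries labelled as biological replicates. The vector, its promoter, the number of clones and the time after transfer are not given in the labels used here. Since nothing states that the replicates were separate cultures, p-values measure the spread between these libraries, which may be technical.

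The integrated stress response joins several kinds of stress at 1 step, the phosphorylation of the translation factor eIF2alpha. Its kinases sense heme shortage or mitochondrial stress (HRI, EIF2AK1), double-stranded RNA (PKR, EIF2AK2), unfolded protein in the endoplasmic reticulum (PERK, EIF2AK3) and amino acid shortage (GCN2, EIF2AK4). Bulk protein synthesis then slows while the mRNA of ATF4, a bZIP transcription factor, is translated more. ATF4 protein switches on genes for amino acid import, amino acid synthesis, tRNA charging and redox control, and a partner factor, CHOP (DDIT3), acts in the later response. Only mRNA was measured here, so neither eIF2alpha phosphorylation nor ATF4 protein is known in these cells.

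ATF4 binds composite CCAAT/enhancer and ATF response elements, whose common form contains TGATGNAA. That motif was searched on both strands in the 250 bases before the RefSeq gene start (GRCh38.p14), and the matches are shown because this is the textbook element of ATF4. A window was at hand for 9 of the 10 genes, all but SLC7A11, and 3 of them held a match, against 3.14% of 35116 windows and 3.89% of 27305 genes. The 30-base stretches around the matches follow, on the strand of the gene from 5′ to 3′, with the motif in capitals.
ASNS: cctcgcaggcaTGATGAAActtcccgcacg
CHAC1: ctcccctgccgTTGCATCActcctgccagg
ATF3: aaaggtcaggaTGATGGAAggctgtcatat
The ASNS stretch lies at chr7:97872458-97872487 on the minus strand, with the motif 68 to 61 bases before the start. The CHAC1 stretch lies at chr15:40953251-40953280 on the plus strand, and there the capitals are the motif TGATGCAA read on the opposite strand, 209 to 202 bases before the start. The ATF3 stretch lies at chr1:212565205-212565234 on the plus strand, with the motif 191 to 184 bases before the start. These distances are from the RefSeq start, which was not matched to the start of the transcripts measured here. ATF3 spans chr1:212565334-212620777, so whether its measured RNA begins near this match is not known. The GENCODE v44 spans given with each gene begin further upstream than this start for ASNS, CHAC1 and ATF3. By those spans the ASNS and CHAC1 stretches lie inside the gene, and the ATF3 stretch lies before it. A match is a string of letters and no measured site. The windows of ATF4, DDIT3, TRIB3, DDIT4, PSAT1 and PHGDH did not hold these letters.

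Values are TPM, transcripts per 1000000, a relative abundance scaled by transcript length. TP63 was high in each of the 8 libraries labelled with a construct: it stood at 0.0245 to 1.10 TPM in the 4 mock libraries, 102 to 342 TPM in the 4 TAp63 libraries and 245 to 1187 TPM in the 4 deltaNp63 libraries. TP63 was summed over isoforms, so this shows overexpression, not which isoform was expressed. Between 12212 and 13161 genes reached 1 TPM per library, and replicates correlated at r of 0.987 to 0.994 across genes. All 6 epithelial markers (KRT8, KRT18, KRT19, KRT7, EPCAM, CDH1) reached a mean of 1 TPM in both lines, summing to 7142 to 10565 TPM in AsPC-1 and 3500 to 3869 TPM in PANC-1. Mesenchymal markers (VIM, ZEB1, CDH2) were largely detected too. AsPC-1 libraries had 2 of these 3 at that mean, with a list sum of 2014 to 2378 TPM. PANC-1 libraries had all 3, with a sum of 4335 to 4985 TPM, above the epithelial sum of that line. The remaining lists held few detected genes: 0 of 3 acinar and 0 of 2 endothelial markers in the table for either line. Of 4 leukocyte markers AsPC-1 had 2 and PANC-1 had 1, while each line had 1 of 5 fibroblast markers. The leukocyte list summed to 199 to 244 TPM in AsPC-1 and 255 to 288 TPM in PANC-1, the fibroblast list to 178 to 289 and 81.8 to 112 TPM.

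Between the cell lines 8 of the 9 tested genes passed the test, and with the constructs none did. In the mock libraries, 6 were lower in PANC-1 than in AsPC-1 (ATF4, DDIT3, ASNS, TRIB3, DDIT4 and SLC7A11), 2 were higher (PHGDH and ATF3) and PSAT1 did not pass. Both mock libraries of a line lay apart from those of the other, with no overlap, for the same 6 downward and the same 2 upward, where 34.7% and 52.9% of all tested genes did. The test was limma on log2(TPM + 1), with a threshold of 0.05 on Benjamini-Hochberg adjusted p-values over all genes. The lines differed widely as a whole: 72.5% of all tested genes passed, 27.9% lower and 44.6% higher in PANC-1. The share of these genes that passed, 8 of 9, is therefore close to the background. PHGDH is among the 8 but met the low-value filter only through PANC-1. Their median log2 difference was -1.74, against 0.24 over all genes. TPM are shares of a library's RNA, and in these bulk samples fewer expressing cells and less RNA per cell cannot be told apart.

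**Figure D1:**
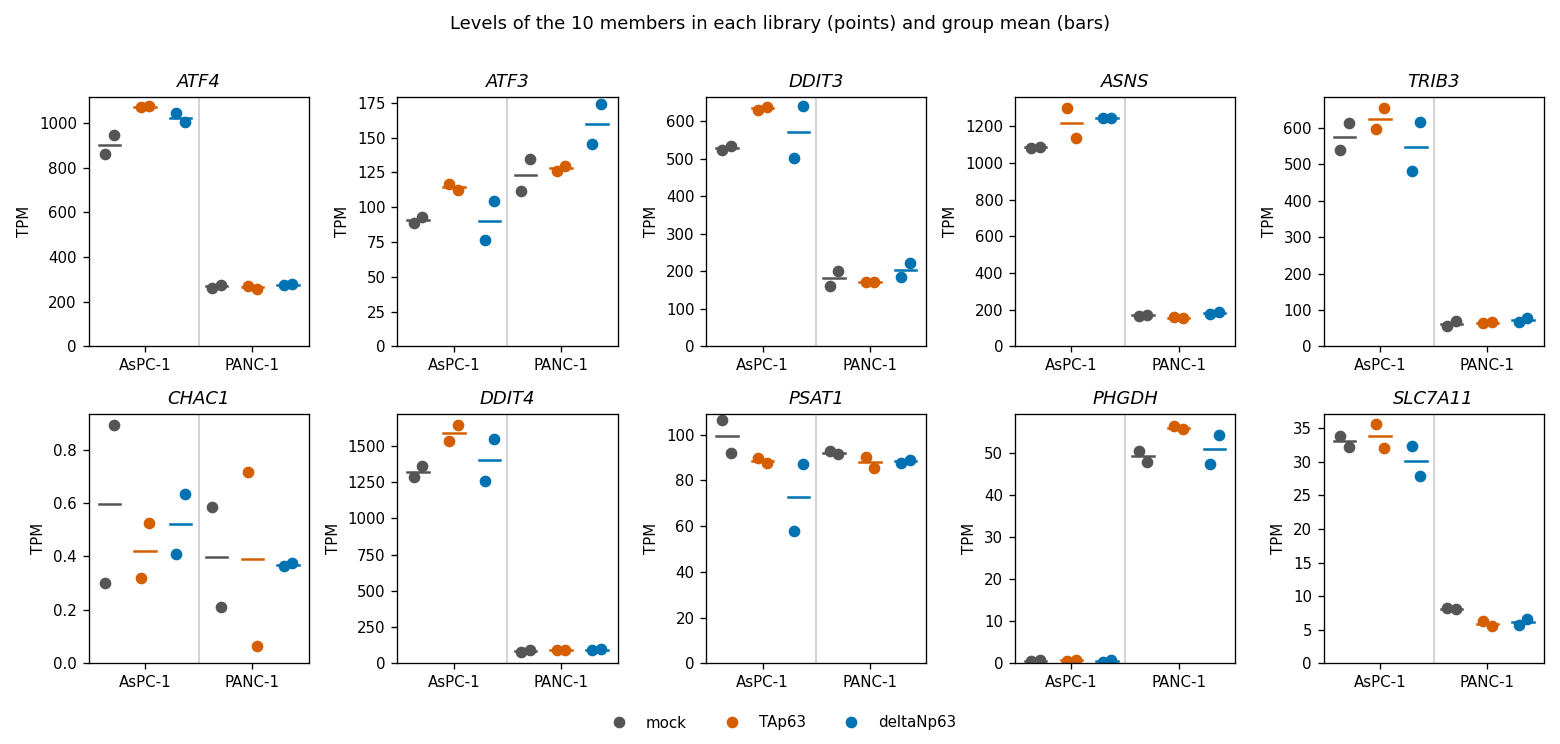
TPM (vertical axis, from 0, own scale per gene) of each of the 10 genes in the 12 libraries, with points for libraries and bars for the mean of each group of 2, coloured by construct. The AsPC-1 and PANC-1 points do not overlap for 7 genes and overlap for ATF3, PSAT1 and CHAC1. Within a line the highest library was mostly 1.08 to 1.85 times the lowest. The exceptions were PHGDH in AsPC-1 (2.36) and CHAC1 (2.97 in AsPC-1 and 11.3 in PANC-1).

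ATF4, the central activator, lies at chr22:39519695-39522683 on the plus strand (GENCODE v44, hg38). Its level in AsPC-1 was 861 and 947 TPM in mock, 1073 and 1076 TPM with TAp63, and 1046 and 1005 TPM under deltaNp63. In PANC-1 it was 262 and 277 TPM in mock, 272 and 257 TPM with TAp63, and 273 and 278 TPM under deltaNp63. The lowest AsPC-1 library was above the highest PANC-1 library. The mock means were 904 ± 60.8 TPM and 269 ± 10.4 TPM (SD, n = 2 each), 3.35-fold higher in AsPC-1, with a log2 difference of -1.74 for PANC-1 against AsPC-1 (SE 0.0687, limma adjusted p = 7.08e-09). In AsPC-1 only 0.968% of tested genes had a higher mean TPM than ATF4, and in PANC-1 3.51% did.

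DDIT3, which encodes the transcription factor CHOP, lies at chr12:57516588-57521737 on the minus strand. In AsPC-1 its level was 522 and 535 TPM in mock, 632 and 639 TPM with TAp63, and 502 and 641 TPM under deltaNp63. In PANC-1 the values were 162 and 202 TPM in mock, 171 and 170 TPM with TAp63, and 185 and 223 TPM under deltaNp63. The lines did not overlap, and the mock level was 2.90-fold higher in AsPC-1 (log2 difference of PANC-1 against AsPC-1 -1.54, SE 0.136, limma adjusted p = 3.19e-06). DDIT3 overlaps MARS1 and MBD6 on the genome, and how the reads of overlapping genes were assigned is not given, so its level is uncertain to that extent.

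ATF3, a stress-induced bZIP factor, lies at chr1:212565334-212620777 on the plus strand and was the higher in PANC-1. Its AsPC-1 values were 89.0 and 93.2 TPM in mock, 117 and 113 TPM with TAp63, and 76.1 and 104 TPM under deltaNp63. Its PANC-1 values were 112 and 135 TPM in mock, 126 and 130 TPM with TAp63, and 146 and 174 TPM under deltaNp63. The mock pairs did not overlap, but the lines overlapped over all 12 libraries. The mock level was 1.35-fold higher in PANC-1 (log2 difference 0.43, SE 0.148, limma adjusted p = 0.0244). This call was lost without AsPC-1 mock replicate 1 (adjusted p = 0.0972), AsPC-1 mock replicate 2 (0.0597) or PANC-1 mock replicate 2 (0.176), and with median centring (0.103) or no filter on low values (0.0571). It was the only cell-line call among the 9 genes that any alternative removed.

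TRIB3 and DDIT4 are targets that feed back on growth signalling. TRIB3, a pseudokinase that binds AKT and ATF4, lies at chr20:362835-397559 on the plus strand. Its AsPC-1 values were 539 and 614 TPM in mock, 597 and 655 TPM with TAp63, and 481 and 617 TPM under deltaNp63. In PANC-1 they were 56.1 and 68.6 TPM in mock, 64.5 and 65.5 TPM with TAp63, and 67.9 and 78.8 TPM under deltaNp63. The lines were far apart, and the mock level was 9.25-fold higher in AsPC-1 (log2 difference -3.19, SE 0.139, limma adjusted p = 1.5e-08).

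DDIT4 encodes REDD1, an inhibitor of mTORC1, and lies at chr10:72273919-72276036 on the plus strand. It was the most abundant of the 10 genes in AsPC-1, at 1284 and 1362 TPM in mock, 1537 and 1642 TPM with TAp63, and 1255 and 1549 TPM under deltaNp63. In PANC-1 it stood at 78.0 and 89.7 TPM in mock, 89.7 and 92.4 TPM with TAp63, and 92.0 and 98.6 TPM under deltaNp63. Its mock level was 15.8-fold higher in AsPC-1 (log2 difference -3.97, SE 0.106, limma adjusted p = 4.34e-10), the widest gap among the genes that were lower in PANC-1. Of all tested genes, 0.657% had a higher mean than DDIT4 in AsPC-1 and 12.2% in PANC-1.

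ASNS, asparagine synthetase, which makes asparagine from aspartate and glutamine, lies at chr7:97851677-97872542 on the minus strand. Its AsPC-1 values were 1084 and 1087 TPM in mock, 1302 and 1136 TPM with TAp63, and 1247 and 1248 TPM under deltaNp63. PANC-1 held 166 and 172 TPM in mock, 158 and 153 TPM with TAp63, and 175 and 186 TPM under deltaNp63. The lines did not overlap, and the mock level was 6.43-fold higher in AsPC-1 (log2 difference -2.68, SE 0.0751, limma adjusted p = 5.84e-10). ASNS also overlaps other annotated genes, with the same uncertainty as DDIT3.

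PHGDH and PSAT1 encode consecutive enzymes of serine synthesis from a glycolytic intermediate, and only PHGDH differed past the threshold. PHGDH, the first enzyme, lies at chr1:119648411-119744218 on the plus strand and was under 1 TPM in every AsPC-1 library: 0.50 and 0.73 TPM in mock, 0.65 and 0.82 TPM with TAp63, 0.38 and 0.90 TPM under deltaNp63. In PANC-1 it was 50.7 and 48.0 TPM in mock, 56.6 and 55.7 TPM with TAp63, and 47.6 and 54.5 TPM under deltaNp63. The mock log2 difference was 4.97 (SE 0.156, limma adjusted p = 1.28e-09), in the opposite direction to ATF4. PHGDH met the low-value filter only through PANC-1, which favours a difference in that direction, so the p-value is no independent support. The ratio of the mock means was 80.3, but its AsPC-1 side is under 1 TPM and the read depth is unknown, so the ratio is imprecise.

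PSAT1, phosphoserine aminotransferase, lies at chr9:78297125-78330093 on the plus strand. Its values were 107 and 91.9 TPM in AsPC-1 mock, 89.9 and 87.6 TPM with TAp63, and 57.7 and 87.4 TPM under deltaNp63. In PANC-1 they were 92.7 and 91.5 TPM in mock, 90.4 and 85.4 TPM with TAp63, and 87.6 and 89.1 TPM under deltaNp63. The lines overlapped, and the mock difference of -0.10 on the log2 scale had a 95% confidence interval of -0.46 to 0.25 (limma adjusted p = 0.572). The interval still allows a modest difference between the lines.

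SLC7A11 encodes xCT, the cystine importer that supplies glutathione synthesis, and lies at chr4:138164097-138242349 on the minus strand. AsPC-1 held 33.9 and 32.2 TPM in mock, 35.6 and 32.1 TPM with TAp63, and 32.3 and 27.9 TPM under deltaNp63. PANC-1 held 8.19 and 8.04 TPM in mock, 6.26 and 5.56 TPM with TAp63, and 5.77 and 6.59 TPM under deltaNp63. The lines did not overlap, and the mock level was 4.07-fold higher in AsPC-1 (log2 difference -1.90, SE 0.113, limma adjusted p = 1.6e-07). An antisense gene, SLC7A11-AS1, overlaps it, and whether strand was used in the counting is not given.

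CHAC1, which degrades glutathione, lies at chr15:40952962-40956512 on the plus strand and ranged from 0.06 to 0.89 TPM over the 12 libraries, with the lines overlapping. This value rests on 1 of its 3 annotated transcripts, and the canonical transcript was not analysed here, so the level of the gene as a whole is not known from it. ATF4 and PHGDH likewise lack their GENCODE canonical transcript among the matched rows. The ATF4 sum came from 3 of 11 annotated transcripts, and 1 of these carried 99.6% of it in AsPC-1 and 99.0% in PANC-1. PHGDH was summed over 7 of 34.

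Set against ATF4 within each library, 3 of 5 targets taken from the set had ratios that did not overlap between the lines. The ratio of ASNS to ATF4 in TPM was 1.06 to 1.26 in the 6 AsPC-1 libraries and 0.581 to 0.670 in the 6 PANC-1 libraries. DDIT4 over ATF4 ran from 1.20 to 1.54 in AsPC-1 and from 0.298 to 0.360 in PANC-1, and TRIB3 over ATF4 from 0.460 to 0.649 and from 0.214 to 0.283. DDIT3 over ATF4 went the other way, at 0.480 to 0.638 against 0.618 to 0.801, with overlap, and SLC7A11 over ATF4 also overlapped, at 0.0277 to 0.0394 against 0.0211 to 0.0312. Together the 10 genes summed to 4520 to 5384 TPM in AsPC-1 and 988 to 1189 TPM in PANC-1. ATF3, PSAT1 and PHGDH were not among the 5, nor was CHAC1, below the filter. From AsPC-1 to PANC-1 the mock mean of ATF4 went from 904 to 269 TPM. That of ATF3 went from 91.1 to 123 TPM, PSAT1 from 99.3 to 92.1 and PHGDH from 0.61 to 49.3. Relative to ATF4 these 3 were thus higher in PANC-1, the reverse of ASNS, TRIB3 and DDIT4. These ratios and levels are descriptions, with no test.

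Transcript use within a gene is given as the deposited estimates have it, with no test. Shares are of the TPM summed over the 6 libraries of a line. The canonical ASNS transcript carried 78.3% of the gene's TPM in AsPC-1 (72.7% to 83.0% in single libraries). In PANC-1 it carried 64.0% (58.3% to 68.4%), without overlap. For DDIT3 the most abundant transcript carried 78.1% and 82.2%, that of SLC7A11 85.0% and 77.7%, and that of DDIT4 98.9% and 97.3%. For these last 3 genes the libraries of the lines overlapped. In each of the 4 genes the same transcript led in both lines.

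The wider pathway, 47 other genes of which 46 were tested (FGF21 was below the filter), was also lower more often than higher in PANC-1. In the mock comparison 29 were lower, 10 were higher and 7 did not pass, where 27.9% of all tested genes were lower and 44.6% higher. The median log2 difference was -0.58, against 0.24 over all genes. Of the amino acid transporters, 7 of 7 were lower in PANC-1, with a median of -1.50. SLC38A2, a sodium-coupled neutral amino acid transporter, went from a mean of 1521 to 190.6 TPM (log2 difference -2.99, limma adjusted p = 4.34e-10). Of 12 aminoacyl-tRNA synthetases, which load amino acids onto tRNAs, 10 were lower and 0 higher, with a median of -0.76. Each of the 7 transporters was also lower with quantile normalization and with median centring, and 10 and 11 synthetases were.

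Enzymes of serine, one-carbon, sulfur amino acid and proline synthesis gave 2 of 8 higher and 3 lower, beside 44.6% and 27.9% of all tested genes. CBS and CTH, the consecutive enzymes that turn homocysteine into cysteine, stood in opposite order. CBS was 0.176 and 0.0336 TPM in AsPC-1 mock and 33.0 and 32.7 TPM in PANC-1 mock (log2 difference 4.94, limma adjusted p = 6.47e-10). Like PHGDH, CBS met the low-value filter only through PANC-1. CTH was 41.5 and 39.1 TPM in AsPC-1 mock and 5.38 and 5.95 TPM in PANC-1 mock (-2.63, limma adjusted p = 8.85e-09). Of 5 further transcription factors 2 were higher and 3 lower, and NUPR1, a small stress-induced chromatin regulator, went from a mean of 5.05 to 71.7 TPM (3.59, limma adjusted p = 1.47e-09).

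Among the other targets 3 of 7 were higher and 4 lower, beside 44.6% and 27.9% of all tested genes. STC2, a secreted glycoprotein, was at most 0.0151 TPM in every AsPC-1 library and had a mean of 49.1 TPM in PANC-1 mock (log2 difference 5.64, limma adjusted p = 2.88e-10). TXNIP, the thioredoxin-binding protein, ran the other way, from a mean of 12.4 TPM to 0.0488 TPM (-3.68, limma adjusted p = 1.02e-07). VLDLR, the very low density lipoprotein receptor, was listed at 0 in every AsPC-1 library and stood at 1.13 and 1.26 TPM in PANC-1 mock. It is named here after its values were seen. STC2 and VLDLR met the low-value filter only through PANC-1, and TXNIP only through AsPC-1, which favours a difference in those directions.

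Upstream of ATF4, 2 of the 4 eIF2alpha kinases were higher in PANC-1, where 44.6% of all tested genes were, and 2 did not pass. EIF2AK4 (GCN2) was 2.09-fold higher in PANC-1 mock (log2 difference 0.98, limma adjusted p = 0.000307) and EIF2AK1 (HRI) 1.44-fold higher (0.52, limma adjusted p = 0.00293). EIF2AK2 (PKR, 0.12, adjusted p = 0.381) and EIF2AK3 (PERK, 0.29, adjusted p = 0.101) did not pass in limma. EIF2S1, which encodes eIF2alpha, was higher by 0.54 (limma adjusted p = 8.88e-05). PPP1R15A (GADD34), the stress-induced subunit that directs a phosphatase to eIF2alpha and is itself an ATF4 and CHOP target, was 4.08-fold higher in AsPC-1 mock (-2.02, limma adjusted p = 1.34e-06). Its constitutive relative PPP1R15B differed less, at -0.52 (limma adjusted p = 0.003).

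Genes of the unfolded protein response, the parallel programme driven by IRE1 and ATF6, were also compared between the mock groups. Of 17 genes, 9 were higher, 5 lower and 3 did not pass, shares near the 44.6% and 27.9% of all tested genes, with a median log2 difference of 0.51 against 0.24 over all genes. With quantile normalization, and with median centring, 7 were higher and 6 lower. The largest differences upward were in the folding genes CRELD2 with 1.84, SDF2L1 with 1.64 and PDIA4 with 1.48 (limma adjusted p = 1.45e-05, 6.85e-06 and 2.78e-06). Those downward were in ERN1, which encodes IRE1, with -2.82, its substrate XBP1 with -1.72 and HERPUD1, of endoplasmic reticulum degradation, with -0.93 (limma adjusted p = 1.86e-07, 3.96e-06 and 3.48e-05). The main chaperone, HSPA5 (BiP), named after its values were seen, differed by -0.046 (limma adjusted p = 0.74).

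**Figure D2:**
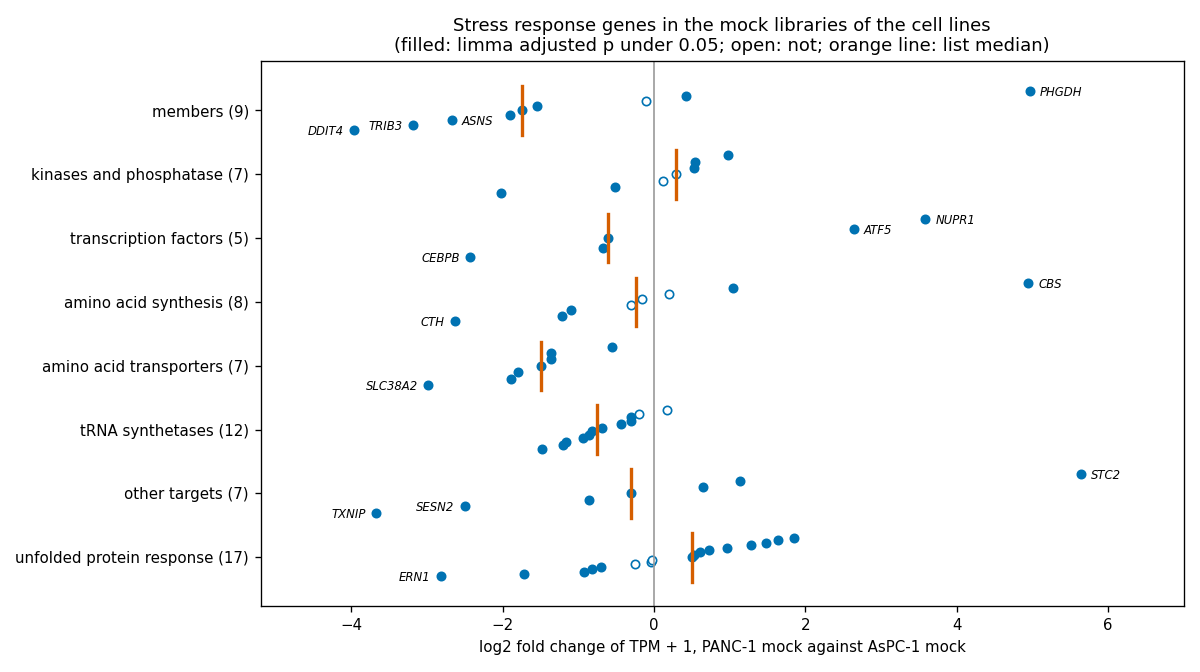
Log2 fold change of TPM + 1 for PANC-1 mock against AsPC-1 mock (horizontal axis; 2 libraries a group), 1 point per tested gene, in rows by gene list with the number tested; filled points passed limma's adjusted threshold of 0.05, open points did not, and orange lines are list medians. The row of the 9 tested genes of the set has a median of -1.74, with PHGDH far to the right at 4.97. The transporters lie wholly below 0, and the unfolded protein response lies on both sides.

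In AsPC-1, TAp63 left none of the 9 tested genes past the threshold in limma, and 3 of 9 had an unadjusted p under 0.05 (ATF4, ATF3 and DDIT4). Of all tested genes 0.637% passed in this comparison, so 0 of 9 is near the background. The genes lay mostly above 0, 8 of 9, with a median log2 change of 0.16 against -0.076 over all genes. PHGDH, under 1 TPM in every AsPC-1 library, is in this and every other AsPC-1 count of 9, so its sign there says little. ATF4 had 861 and 947 TPM in mock and 1073 and 1076 TPM with TAp63, a change of 0.25 (SE 0.0687, limma adjusted p = 0.15). ATF3 differed by 0.33 (adjusted p = 0.33), DDIT3 by 0.27 (0.394), DDIT4 by 0.26 (0.284) and ASNS by 0.16 (0.341), all in limma. For these 5 genes both TAp63 libraries were above both mock libraries, and for PSAT1 both were below. Over all tested genes such separation was seen upward in 11.2% and downward in 35.4%.

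With deltaNp63 in AsPC-1, 0 of the 9 tested genes passed in limma, 3 had an unadjusted p under 0.05 (ATF4, ASNS and PSAT1), and 7.14% of all tested genes passed. ATF4 (0.18, adjusted p = 0.112) and ASNS (0.20, adjusted p = 0.114) lay above both mock libraries, and PSAT1 (-0.47, SE 0.157, adjusted p = 0.0834) below them, all in limma. Over all genes such separation was seen upward in 11.1% and downward in 41.1%. The median change of the 9 was 0.0056, against -0.12 over all genes. The direction of the many calls in this comparison depended on scaling: 94 genes rose and 961 fell as deposited, 51 and 148 with quantile normalization, and 249 and 170 with median centring, which moved the median of all genes by 0.21. With median centring ATF4 (0.39, adjusted p = 0.037) and ASNS (0.41, adjusted p = 0.0394) passed in limma.

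**Figure D3:**
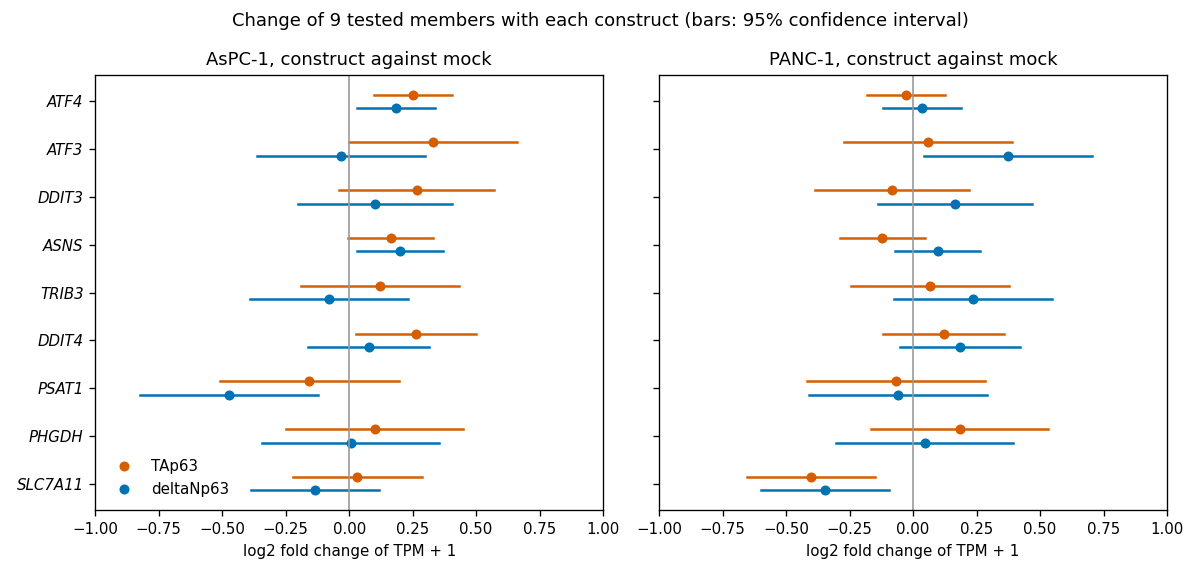
Log2 fold change of TPM + 1 (horizontal axis) of the 9 tested genes for each construct against the mock of the same line, AsPC-1 on the left and PANC-1 on the right; points are limma estimates from 2 libraries a group and bars their 95% confidence intervals. No gene passed after adjustment over all genes; in AsPC-1 the PSAT1 estimate with deltaNp63 is -0.47, and in PANC-1 the SLC7A11 estimates are -0.40 and -0.35.

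The replicates of AsPC-1 with deltaNp63 were the least alike of any group for these genes. Replicate 2 exceeded replicate 1 by 1.37 times for ATF3, 1.28 for DDIT3 and TRIB3, 1.23 for DDIT4 and 1.51 for PSAT1, while ATF4 (0.961) and ASNS (1.00) were level. The median absolute log2 difference between the replicates was 0.352 over the tested genes of the set and 0.211 over all genes, and the other 5 groups gave 0.0416 to 0.165 and 0.092 to 0.148. Without deltaNp63 replicate 2, PSAT1 passed against mock at -0.77 (limma adjusted p = 0.00135). Results on this group rest on which of the 2 libraries is used, and the part of the difference between them was not tested.

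**Figure D4:**
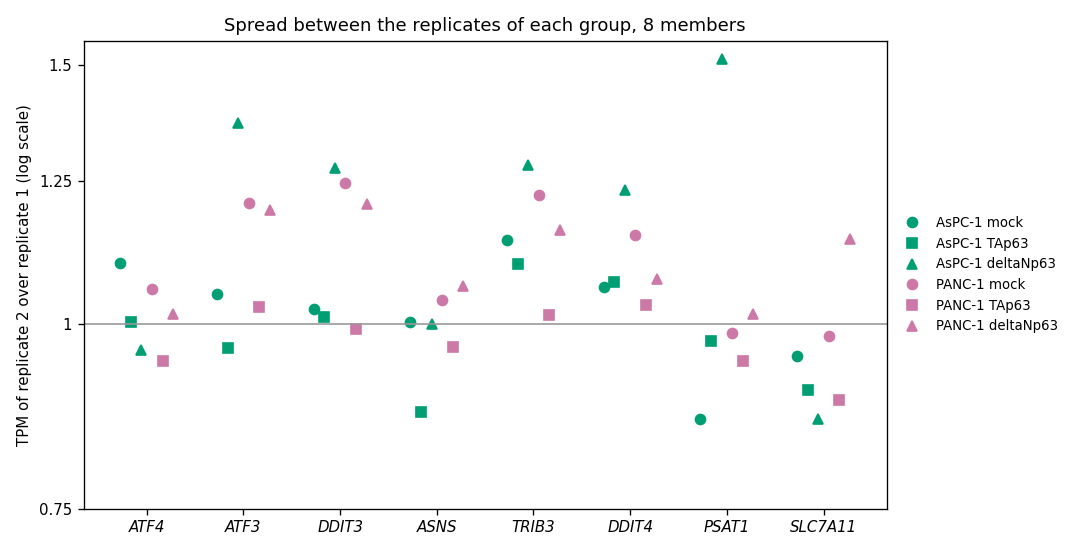
TPM of replicate 2 divided by replicate 1 (vertical axis, log scale) for 8 genes in each of the 6 groups, coloured by cell line and shaped by construct; CHAC1 and PHGDH, near 0 in AsPC-1, are left out. AsPC-1 deltaNp63 (green triangles) gives the highest ratio for ATF3, DDIT3, TRIB3, DDIT4 and PSAT1, up to 1.51.

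In PANC-1 no gene of the set passed with either construct. TAp63 brought 0 of 9 genes past the threshold in limma, with 1 at an unadjusted p under 0.05, and 0.00677% of all genes passed. deltaNp63 also brought 0 of 9, with 2 at an unadjusted p under 0.05, and 0.0406% of all genes passed. SLC7A11 had the largest estimate with TAp63: 8.19 and 8.04 TPM in mock against 6.26 and 5.56 TPM with TAp63 (-0.40, 95% confidence interval -0.65 to -0.15, unadjusted p = 0.00551, adjusted p = 1 in limma). With deltaNp63 it stood at 5.77 and 6.59 TPM (-0.35, unadjusted p = 0.0124, adjusted p = 1 in limma). Both comparisons share the same mock libraries. ATF3 differed by 0.37 with deltaNp63 (146 and 174 TPM against 112 and 135, unadjusted p = 0.0302, adjusted p = 1 in limma), and ATF4 by -0.027 with TAp63 and 0.033 with deltaNp63.

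Separation of the libraries was common in PANC-1 too. With TAp63, DDIT4 and PHGDH lay above both mock libraries and ASNS, PSAT1 and SLC7A11 below, where 22% and 20.4% of all genes separated upward and downward. With deltaNp63, ATF3, ASNS and DDIT4 lay above and PSAT1 and SLC7A11 below, where 10.8% and 16.3% of all genes did. ATF4 overlapped its mock values with both constructs.

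The isoforms were also set against each other. In AsPC-1, TAp63 against deltaNp63 brought 0 of 9 genes past the threshold in limma, with ATF3 alone at an unadjusted p under 0.05 (0.36, adjusted p = 0.628), and 0.0203% of all genes passed. In PANC-1 it brought 0 of 9, with ASNS alone at an unadjusted p under 0.05 (-0.22, adjusted p = 1), and 0.0271% of all genes passed. The signs ran opposite in the lines, with 8 of 9 estimates above 0 in AsPC-1 and 8 of 9 below 0 in PANC-1. The medians were 0.17 and -0.064, against 0.040 and 0.016 over all genes. PHGDH, under 1 TPM in every AsPC-1 library, is among the 9. ATF4, ATF3 and PSAT1 lay above without overlap in AsPC-1, where 19.6% of all genes did and 9.87% lay below. In PANC-1 PHGDH lay above and ATF4, ATF3, DDIT3, ASNS and TRIB3 below, where 20.2% and 13.8% of all genes did. Without AsPC-1 deltaNp63 replicate 2, ATF3 and PSAT1 passed in the AsPC-1 comparison, so it rests on that library.

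Whether a construct acted differently in the lines was tested as the effect in PANC-1 minus that in AsPC-1. Mean TP63 was also higher in PANC-1, at 333 against 136 TPM with TAp63 and 1001 against 298 TPM with deltaNp63. Cell line and construct level therefore cannot be told apart here. For TAp63, 0 of 9 genes passed in limma, with 3 at an unadjusted p under 0.05: ATF4 at -0.28 (adjusted p = 0.405), ASNS at -0.28 (0.425) and SLC7A11 at -0.43 (0.421). Of all genes 0.0745% passed. For deltaNp63, 0 of 9 passed, 0 had an unadjusted p under 0.05, and 0.582% of all genes passed. Leaving out AsPC-1 deltaNp63 replicate 2 brought ATF3 (0.63) and PSAT1 (0.71) past the threshold there.

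Other pathway genes were tested with the constructs too. In AsPC-1 with deltaNp63, 1 of 46 fell and 0 rose, where 7.14% of all tested genes passed. The gene was EIF2AK2, the double-stranded RNA sensor PKR, at 144 and 154 TPM in mock and 109 and 86.2 TPM with deltaNp63 (-0.61, SE 0.12, limma adjusted p = 0.0287). With TAp63 it stood at 95.7 and 98.7 TPM, an estimate of -0.61 that did not pass (limma adjusted p = 0.0665). The call with deltaNp63 held in 6 of 13 alternatives, at adjusted p-values of 0.0137 to 0.363, and was lost without AsPC-1 mock replicate 1 (0.123) or replicate 2 (0.108). With median centring EIF2AK2 did not pass (-0.40, adjusted p = 0.105), and the single pathway call was a rise of SARS1, seryl-tRNA synthetase, named after its values were seen (0.44, limma adjusted p = 0.0305). The count was 13 of 46, 12 of them lower, without deltaNp63 replicate 2. With TAp63 in AsPC-1, 0 of 46 passed and 5 had an unadjusted p under 0.05, and in PANC-1 0 of 46 passed with either construct, with 1 at an unadjusted p under 0.05 in each.

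Unfolded protein response genes gave 4 falls and 0 rises among 17 in AsPC-1 with deltaNp63, a comparison in which 7.14% of all tested genes passed and falls outnumbered rises by 961 to 94. SDF2L1 was 20.2 and 18.8 TPM in mock and 9.02 and 12.3 TPM with deltaNp63 (-0.82, limma adjusted p = 0.0276). PDIA4, a protein disulfide isomerase, fell by 0.63 on the log2 scale (adjusted p = 0.03), the calcium-binding chaperone CALR by 0.55 (0.0366), and the chaperone HSP90B1, named after its values were seen, by 0.28 (0.0422), in limma. This count became 0 without AsPC-1 mock replicate 1, mock replicate 2 or deltaNp63 replicate 1, became 8 without deltaNp63 replicate 2, and was 0 with quantile normalization, where 7 genes had an unadjusted p under 0.05. It was also 0 with no low-value filter (adjusted p of 0.0704 to 0.0933 for the 4 genes, 7 genes at an unadjusted p under 0.05), with only the groups compared (0.363, 6 genes) and with only the 6 libraries of the line (0.243 to 0.2475, 5 genes). It was 1, SDF2L1, with median centring, and 2 without limma's trended prior.

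A last description concerns genes whose levels followed the set over the 6 libraries of a line. Likeness was Pearson's r with the mean of the tested genes of the set, ranked by the smaller of both lines' values among 14681 candidates. MYC came first, at 0.969 in AsPC-1 and 0.978 in PANC-1, followed by LRRC59 (0.880 and 0.921), EPS8L1 (0.908 and 0.879), DHX35-DT (0.875 and 0.955) and HMGN5 (0.891 and 0.870). With 6 libraries that share groups and scaling, no batch stated in the labels, and so many candidates, these values carry no test.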

How the data were processed

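The authors deposited transcript TPM for 12 libraries, each column summing to 1000000; per the labels' protocols, total RNA was column-purified and libraries were made with a stranded mRNA kit. The quantifier, build and annotation are not given in the sources used here, and TPM keeps no read depth, so precision comes from replicates alone. Of 153329 transcript rows, 139819 (91.2%) matched GENCODE v44 (hg38), holding 89.6% to 90.5% of a library's TPM, and were summed to 39099 genes. Genes reaching 1 TPM in 2 or more libraries were analysed as log2(TPM + 1), which understates changes of low genes, with limma 3.58.1 in R 4.3.3 (1 mean per group, 12 libraries, trended prior, Benjamini-Hochberg within each of 9 contrasts). The code was tested on simulated data. The 10 genes, the other lists and the tests were chosen with earlier results of these data known. Named among the other pathway genes were the kinases, the phosphatase subunits and the 3 largest rises and falls that passed in a contrast; the most alike genes were ranked by r. Promoter windows came from RefSeq. Alternatives changed scaling, filter, pseudocount, prior, block, libraries fitted or left out 1 library.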

Additional observations from a re-analysis of the deposited data

How the results depend on the processing

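With main counts of 0 of 9 genes of the set and 1 of 46 pathway genes for deltaNp63 against mock in AsPC-1, median centring gave 2 of the set. The pathway count there became 0 with quantile normalization, with no low-value filter, with only the groups compared or with only the 6 libraries of the line (9, 8, 5 and 7 genes at an unadjusted p under 0.05 in limma), and 3 with a mean of at least 5 TPM. For TAp63 against mock in AsPC-1, that last filter gave 1 pathway gene, EIF2AK2, against 0. Leaving out 1 library gave 0 to 1 genes of the set and 0 to 13 pathway genes for deltaNp63 against mock in AsPC-1, 0 to 2 and 0 to 5 for TAp63 against deltaNp63 there, and 0 to 2 and 0 to 8 for the cell-line difference in the deltaNp63 effect. Each upper end was without AsPC-1 deltaNp63 replicate 2, and the cause was not tested. Between the mock libraries of the lines the counts were 7 to 8 and 36 to 38. The alternatives on the unfolded protein response were added after seeing the data.

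Median centring moved the share of lower calls in AsPC-1 from 95.7% to 85.1% with TAp63 and from 91.1% to 40.6% with deltaNp63. With deltaNp63 the lower calls went from 961 to 170 and the higher calls from 94 to 249. There the 1 pathway call turned from EIF2AK2, lower, to SARS1, higher, and the pathway median from -0.11 to 0.094. In PANC-1 with deltaNp63 it moved 4 higher and 2 lower genes to 2 and 0.

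Whether the same replicate number marks paired samples is not stated in the labels. Deviations of same-numbered libraries within a line correlated at -0.0945 to 0.293, which cannot decide it with 2 libraries a group. A replicate block gave 3 pathway genes, EIF2AK2, EIF2AK1 and ATF5, all lower, for deltaNp63 against mock in AsPC-1, and 8 genes of the set and 38 pathway genes between the mock groups. Of 156 counts under the alternatives that kept every library, 148 were within 1.5 times the main count, with 0 against 0 taken as within. Outside the mock comparison, the only main count above 0 was the 1 pathway gene for deltaNp63 against mock in AsPC-1. Most of the 148 are therefore counts that stayed at 0, and they say little on how stable a call is. No gene of the set was called in opposite directions.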
